A study of Rattus norvegicus with 22 samples.

Results

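The genes described are 8 of the excitatory synapse: 3 subunits of the NMDA receptor (Grin1, ENSRNOG00000011726; Grin2a, ENSRNOG00000033942; Grin2b, ENSRNOG00000008766), an AMPA receptor subunit (Gria1, ENSRNOG00000045816), a metabotropic receptor (Grm5, ENSRNOG00000016429), a kinase (Camk2a, ENSRNOG00000018712) and the scaffolds Dlg4 (ENSRNOG00000018526) and Homer1 (ENSRNOG00000047014). They were taken from the 29663 genes in the table and picked by Ensembl ID, with a rule that holds no threshold on their values. The table holds RNA sequencing of the prefrontal cortex (PFC) of male Sprague-Dawley rats in 12 libraries, 3 in each of 4 groups. The WIN+cocaine group received WIN, a synthetic agonist of cannabinoid receptors, and cocaine; the cocaine group received cocaine; the WIN group received WIN; the control group is labelled control only. The title of the series places the cannabinoid exposure in adolescence and asks how it alters the first response to cocaine, whereas the labels state no dose, age, interval or control injection. No label says whether the libraries of a group are separate animals, and the p-values describe only how these libraries spread, which can include technical spread.

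Glutamate released in the cortex opens AMPA receptors, which carry the fast current, and NMDA receptors, which let calcium in when the membrane is also depolarized. Calcium activates the kinase CaMKII, and receptors and kinase are held under the synapse by scaffold proteins, with PSD-95, the product of Dlg4, beside the NMDA receptor and Homer proteins beside the metabotropic receptor. This machinery is known for its part in synaptic plasticity and in lasting responses to cocaine.

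All 8 genes were well expressed and passed the filter of 1 FPKM or more (reads scaled by gene length and library depth) in at least 3 libraries, with 12 of 12 libraries above that level for each. Of the 8 genes, 2 separated the cocaine libraries from the control libraries in value: Grin1 was higher and Homer1 lower in all 3 cocaine libraries than in any control library. Of all tested genes 40% were separated in one direction or the other, so 2 of 8 is no more than that background. Neither passed the test at an adjusted p of 0.05 over the 15326 genes tested. The other 6 genes overlapped between cocaine and control. Across all 12 libraries, Camk2a and Dlg4 followed each other from library to library, as did Grin2a, Grin2b and Grm5, and Homer1 followed neither pair nor trio. Pair and trio were not separate, since Grin2b also varied with Camk2a.

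The upstream sequences of Grin1 and Homer1 are shown because these are the 2 genes whose cocaine and control values did not overlap; that separation is common among all genes, as given above. They are the 250 bases before the transcription start in RefSeq (assembly GRCr8), at chr3:28528755-28529004 on the minus strand for Grin1 and chr2:26278762-26279011 on the plus strand for Homer1, each read 5′ to 3′ along the gene's strand. Capitals mark TGACG or its reverse complement CGTCA, the core shared by half-sites of the cAMP response element. The matches describe these letters and do not show a bound site.
Grin1: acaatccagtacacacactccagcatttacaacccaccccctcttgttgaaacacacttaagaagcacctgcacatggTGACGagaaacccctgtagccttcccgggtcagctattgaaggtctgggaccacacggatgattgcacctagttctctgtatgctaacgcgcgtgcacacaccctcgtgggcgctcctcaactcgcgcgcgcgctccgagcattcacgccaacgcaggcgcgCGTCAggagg
Homer1: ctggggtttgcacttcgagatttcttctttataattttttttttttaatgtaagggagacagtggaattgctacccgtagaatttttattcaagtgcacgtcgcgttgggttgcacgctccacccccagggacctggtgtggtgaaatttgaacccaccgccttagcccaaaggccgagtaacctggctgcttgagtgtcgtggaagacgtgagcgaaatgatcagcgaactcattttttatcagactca
The Grin1 window held 2 such matches and the Homer1 window 0. Of the other 3 genes with a window, Camk2a, whose cocaine and control values overlapped, also held 2, and Grm5 and Dlg4 held 0. Of 33469 RefSeq windows of this length, 18.2% held at least 1 match on either strand. The full element TGACGTCA, which contains the core, was in neither window and in 1.59% of all windows, and the GC box GGGCGG was in neither and in 30.5% of all. The GC content was 57.6% for Grin1 and 46.4% for Homer1, beside a median of 51.2% for all windows. The RefSeq table matched 5 of the 8 genes by symbol.

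The order of FPKM values was stable at the top and close at the bottom. Mean levels over the 12 libraries were 1457 FPKM for Camk2a, 462.9 FPKM for Dlg4, 176.2 FPKM for Grin1 and 63.2 FPKM for Gria1, and these 4 genes held ranks 1 to 4 in this order in each of the 12 libraries. Camk2a, the alpha subunit of CaMKII and a marker of excitatory forebrain neurons, lay above 99.9% of the tested genes in mean level, and Dlg4 above 99.3%. The other 4 genes lay lower, at 22.0 FPKM for Grm5, 21.0 FPKM for Grin2b, 20.9 FPKM for Homer1 and 12.2 FPKM for Grin2a. Grm5, Grin2b and Homer1, whose means lay from 20.9 to 22.0 FPKM, exchanged places between libraries. Grin2a was the lowest of the 8 in 11 of 12 libraries, and in cocaine replicate 2 Homer1 was lower.

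The reads behind these levels, recovered from the steps of the values, were many. They ran from 39129 to 64953 per library for Camk2a, 25885 to 41012 for Dlg4 and 12668 to 22264 for Grin1, and from 961 to 1778 for Grin2a, the least covered of the 8. Per-gene lengths worked out from the same steps were 1458 bp for Camk2a, 3066 bp for Dlg4, 4164 bp for Grin1, 4395 bp for Grin2a, 5259 bp for Grin2b, 2735 bp for Gria1, 3564 bp for Grm5 and 4031 bp for Homer1. Depth was 20852442 to 27677077 reads per library. In such bulk tissue, fewer cells of a type and less RNA per cell cannot be told apart.

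**Figure D1:**
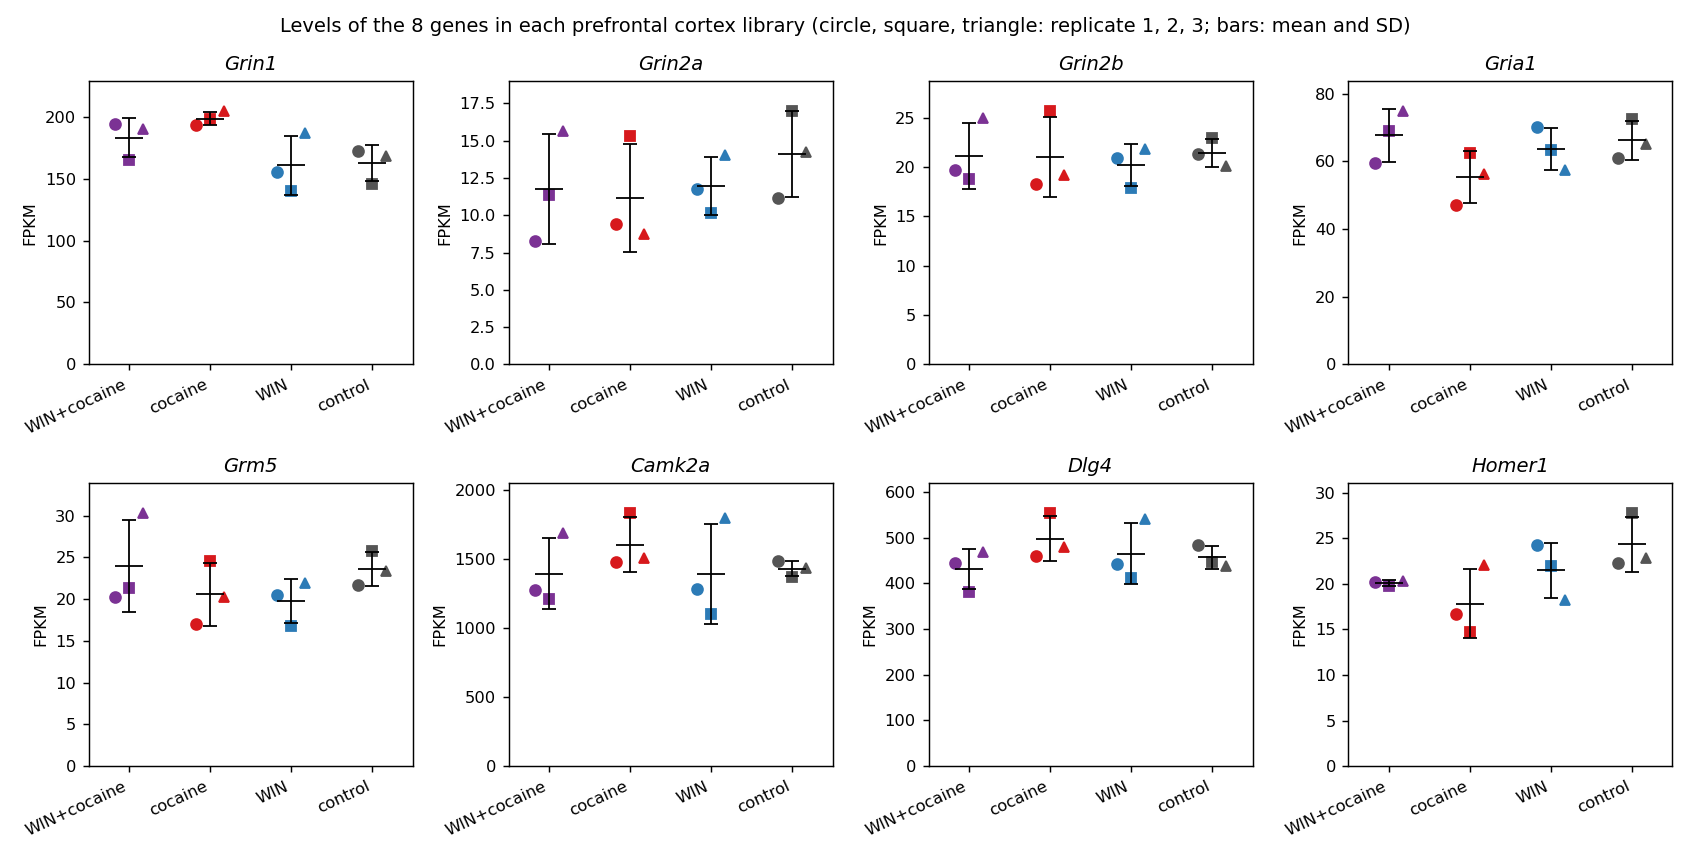
FPKM (vertical axis, from 0) of each gene in the 3 libraries of each group, with the group mean and SD as bars. Grin1 lies above all control libraries in the 3 cocaine libraries, from 193.1 to 204.3 FPKM, and Homer1 lies below them, from 14.7 to 22.1 FPKM.

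Grin1 encodes GluN1, the subunit that every NMDA receptor needs. Its level was 194.2, 165.1 and 189.9 FPKM in WIN+cocaine, 193.1, 198.2 and 204.3 FPKM in cocaine, 155.2, 140.1 and 186.7 FPKM in WIN, and 172.7, 145.9 and 168.6 FPKM in control, in the order of replicates 1 to 3. The cocaine libraries were the closest to each other, with a mean of 198.5 ± 5.60 FPKM, against 162.4 ± 14.5 FPKM in control (SD, n = 3 each). All 3 cocaine values lay above all 3 control values, as they did in 18.5% of the tested genes. In WIN+cocaine, replicates 1 and 3 lay above all controls and replicate 2 within their range. WIN replicate 3, without cocaine, also lay above all controls, at 186.7 FPKM.

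Grin2a encodes GluN2A, the subunit that increases as the cortex matures. It stood at 8.28, 11.3 and 15.6 FPKM in WIN+cocaine, 9.44, 15.3 and 8.75 FPKM in cocaine, 11.7, 10.1 and 14.0 FPKM in WIN, and 11.2, 16.97 and 14.2 FPKM in control. The groups overlapped throughout, and the spread within groups was wide: its within-group SD on the log2 scale was 0.342, larger than that of 92.9% of the tested genes, whose median was 0.143.

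Grin2b encodes GluN2B, the subunit that prevails early in development. It stood at 19.7, 18.8 and 24.98 FPKM in WIN+cocaine, 18.3, 25.6 and 19.2 FPKM in cocaine, 20.9, 17.9 and 21.9 FPKM in WIN, and 21.3, 22.9 and 20.1 FPKM in control. Its 4 group means lay between 20.2 and 21.5 FPKM, closer together than the libraries within cocaine or within WIN+cocaine.

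FPKM values of the NMDA subunit genes were set against each other within a library. Such ratios depend on the gene lengths used, 4395 bp for Grin2a, 5259 bp for Grin2b and 4164 bp for Grin1. The annotation behind these lengths was not stated. The ratios are therefore not measured proportions of transcripts or of receptor subunits. The ratio of Grin2a to Grin2b was 0.42, 0.604 and 0.626 in WIN+cocaine, 0.516, 0.598 and 0.456 in cocaine, 0.562, 0.567 and 0.641 in WIN, and 0.524, 0.74 and 0.708 in control. Grin2b was thus above Grin2a in each of the 12 libraries, and the control group held both of the highest ratios while its replicate 1 lay among the treated libraries. The mean ratio was 0.524 ± 0.0712 in cocaine and 0.657 ± 0.117 in control (SD, n = 3 each), with overlapping ranges. No test was made of ratios. In a ratio chosen after the values were seen, Grin1 exceeded the sum of Grin2a and Grin2b by 4.67 to 6.94 times in WIN+cocaine, 4.83 to 7.32 times in cocaine, 4.76 to 5.2 times in WIN and 3.66 to 5.32 times in control. Cocaine replicates 1 and 3 and WIN+cocaine replicates 1 and 2 were above all control libraries in this ratio, and cocaine replicate 2 and WIN+cocaine replicate 3 were not.

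**Figure D2:**
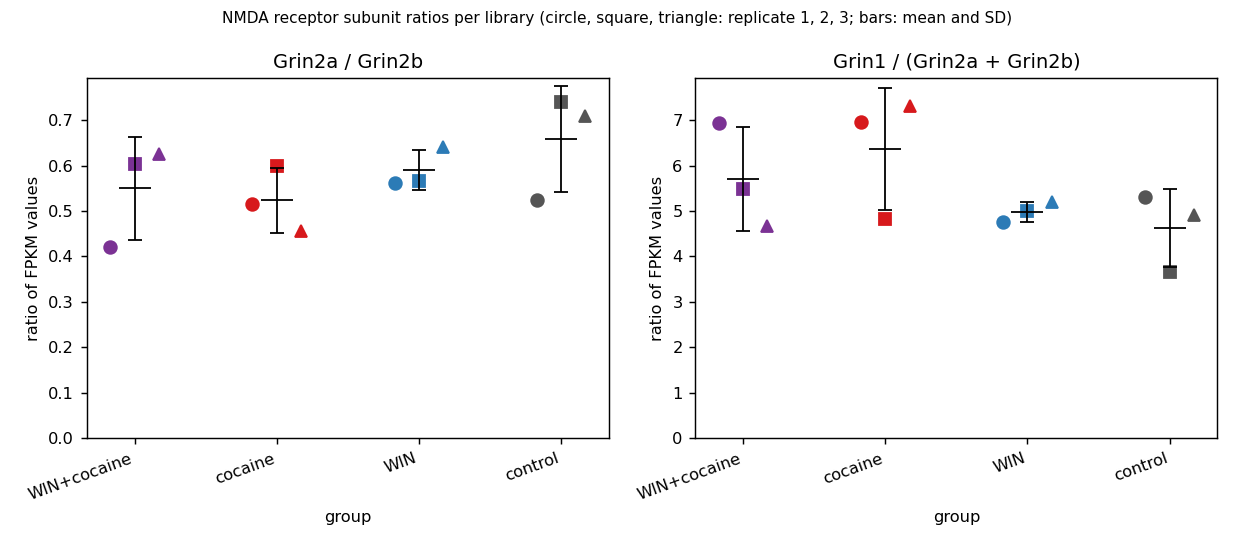
Ratio of FPKM values within each library (vertical axes, from 0), for Grin2a over Grin2b and for Grin1 over the sum of both, with the mean and SD of each group as bars. The group ranges overlap in both panels; Grin2a over Grin2b averaged 0.524 in cocaine and 0.657 in control.

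Gria1 encodes GluA1, an AMPA receptor subunit whose traffic to the synapse is regulated by activity. It stood at 59.4, 68.9 and 74.8 FPKM in WIN+cocaine, 47.2, 62.4 and 56.4 FPKM in cocaine, 70.0, 63.3 and 57.5 FPKM in WIN, and 61.0, 72.6 and 65.0 FPKM in control. Cocaine held both of the lowest values, in replicates 1 and 3, while cocaine replicate 2 lay inside the control range. The means were 67.7 ± 7.76 FPKM in WIN+cocaine, 55.4 ± 7.65 FPKM in cocaine, 63.6 ± 6.26 FPKM in WIN and 66.2 ± 5.86 FPKM in control (SD, n = 3 each).

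Grm5 encodes mGluR5, a receptor coupled to Gq signalling that Homer proteins bind. It stood at 20.3, 21.4 and 30.3 FPKM in WIN+cocaine, 17, 24.5 and 20.3 FPKM in cocaine, 20.5, 16.8 and 21.9 FPKM in WIN, and 21.6, 25.8 and 23.3 FPKM in control. The highest value, in WIN+cocaine replicate 3, stood apart from its 2 companions, and no pair of groups was separated.

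Camk2a stood at 1280, 1214 and 1689 FPKM in WIN+cocaine, 1476, 1834 and 1508 FPKM in cocaine, 1283, 1102 and 1800 FPKM in WIN, and 1488, 1374 and 1434 FPKM in control. Controls were close to each other, with a coefficient of variation of 3.96%, whereas it was 25.9% in WIN, where replicate 3 was far above the other 2 libraries. Dlg4 stood at 444.6, 381.9 and 468.1 FPKM in WIN+cocaine, 460.2, 553.8 and 479.7 FPKM in cocaine, 443.1, 412.5 and 540.3 FPKM in WIN, and 484.6, 446.9 and 438.6 FPKM in control. The same 2 libraries, cocaine replicate 2 and WIN replicate 3, were highest for both genes.

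Homer1 yields long scaffold forms and a short form, Homer1a, that neuronal activity induces and that competes with the long ones; values per gene do not separate them. Its level was 20.2, 19.8 and 20.3 FPKM in WIN+cocaine, 16.7, 14.7 and 22.1 FPKM in cocaine, 24.2, 22.0 and 18.2 FPKM in WIN, and 22.3, 27.8 and 22.9 FPKM in control. All 3 cocaine values lay below all 3 control values, as in 21.5% of the tested genes, but cocaine replicate 3, at 22.1 FPKM, was just under the lowest control library at 22.3 FPKM. All 3 WIN+cocaine values also lay below the controls, as in 8.58% of the tested genes, and they were tightly grouped at 20.1 ± 0.289 FPKM, against 24.3 ± 2.996 FPKM in control (SD, n = 3 each).

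Differences between groups were tested with limma on log2(FPKM + 1), fitted to all 12 libraries and adjusted by Benjamini-Hochberg over the 15326 genes. Cocaine alone was read from cocaine against control. Here 0 of the 8 genes and 0% of all tested genes had an adjusted p under 0.05. At an unadjusted p under 0.05 there were 2 of the 8, beside 31.1% of all tested genes, so the share among the 8 was near that background. Homer1 had a log2 difference of -0.44 (95% confidence interval -0.75 to -0.13), or 0.737-fold, with an unadjusted limma p of 0.00901 and an adjusted p of 0.0731. Grin1 had a log2 difference of 0.29 (0.06 to 0.52), or 1.22-fold, with an adjusted limma p of 0.0979. Of all tested genes, 12.3% had a smaller p than Homer1 and 19.0% a smaller p than Grin1 in this comparison.

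Gria1 followed with a log2 difference of -0.26 (-0.52 to 0.0003), whose interval just reached 0, and an adjusted limma p of 0.161. The remaining 5 genes had intervals that held 0: Grin2a at -0.33 (-0.86 to 0.19), Grm5 at -0.20 (-0.55 to 0.16), Grin2b at -0.04 (-0.34 to 0.26), Dlg4 at 0.12 (-0.13 to 0.37) and Camk2a at 0.16 (-0.22 to 0.53). The median log2 difference of the 8 genes was -0.12, beside -0.02 for all tested genes, with 3 genes higher and 5 lower in value. Under quantile normalization Camk2a had the other sign, at -0.011.

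These values depended on single libraries. Without WIN replicate 3, which enters only the estimate of the spread, Grin1 had an adjusted limma p of 0.038 and Homer1 one of 0.0414, at the same differences; that fit called 2772, or 18.1%, of all tested genes. Over all 20 alternatives the adjusted p ran from 0.038 to 0.321 for Grin1 and from 0.0414 to 0.261 for Homer1, the highest value of both without control replicate 2. With control replicate 2 left out 1 of the 8 genes had an unadjusted p under 0.05, beside 18.6% of all tested genes. With cocaine replicate 3 left out it was also 1, beside 31.0%, and with cocaine replicate 2 left out it was 4, beside 23.7%. Without cocaine replicate 1 the Gria1 difference was -0.15.

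**Figure D3:**
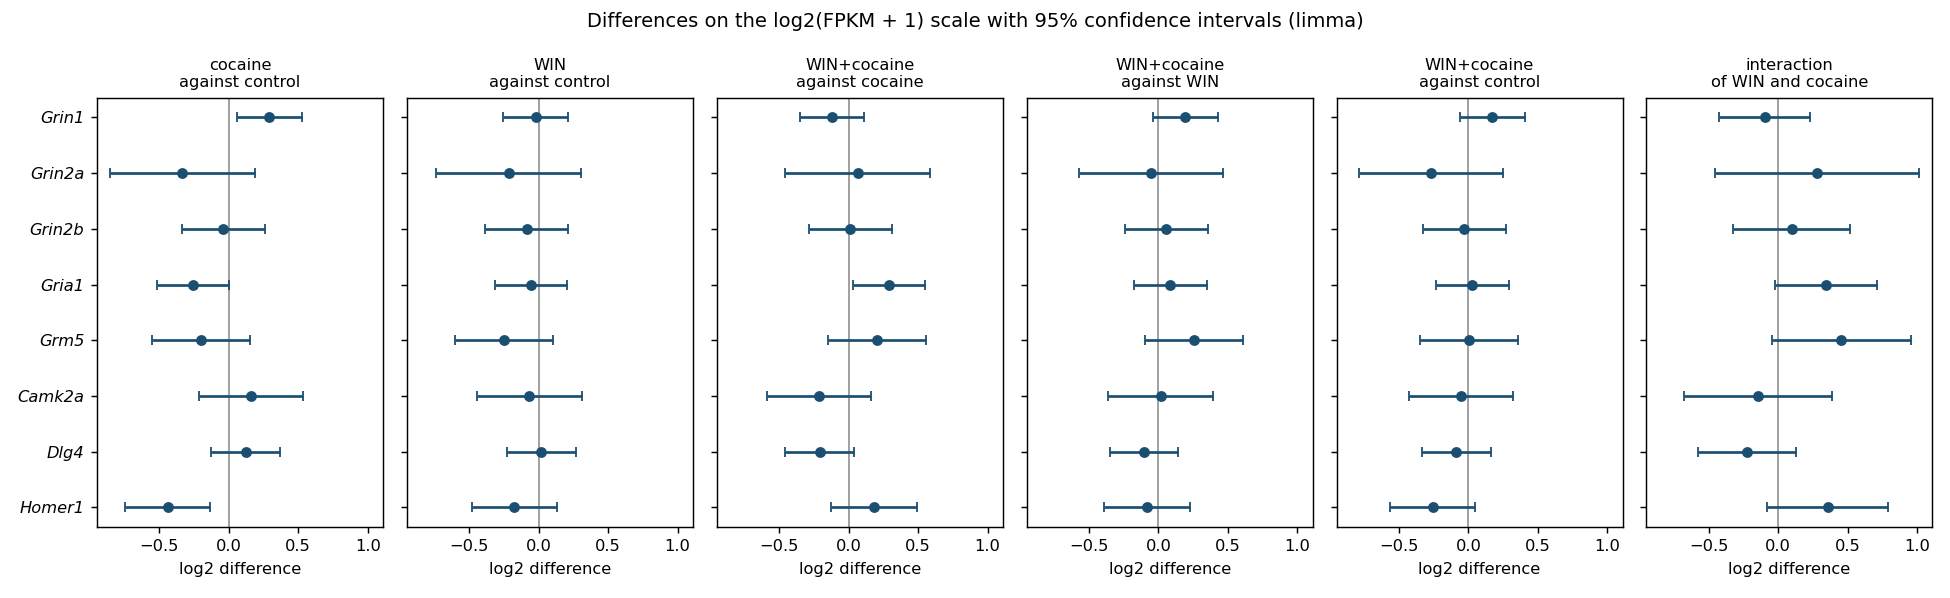
Log2 differences on the log2(FPKM + 1) scale (horizontal axes) for each gene in each comparison, as points with 95% confidence intervals from limma; values above 0 are higher in the group named first. For cocaine against control the intervals of Grin1, at 0.29, and Homer1, at -0.44, exclude 0 before adjustment, and neither had an adjusted p under 0.05.

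WIN against control asked about the cannabinoid alone. Of the 8 genes 0 had an adjusted p under 0.05 in limma, beside 0% of all tested genes, and 0 had an unadjusted p under 0.05, beside 1.55% of all. None of the 8 was separated between the groups, beside 5.93% of all tested genes. The lowest values were those of Grm5, at a log2 difference of -0.25 (95% confidence interval -0.61 to 0.10), Grin2a at -0.21 (-0.74 to 0.31) and Homer1 at -0.17 (-0.48 to 0.13). The other 5 were closer to 0, with Grin2b at -0.09, Camk2a at -0.07, Gria1 at -0.06, Grin1 at -0.02 and Dlg4 at 0.02. The median of the 8 was -0.08, beside -0.0018 for all tested genes. With library weights Grm5 was at -0.32 and was the 1 of the 8 genes with an unadjusted p under 0.05, beside 5.8% of all tested genes.

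WIN+cocaine against cocaine asked whether earlier WIN altered the state after cocaine. Here 0 of the 8 had an adjusted p under 0.05, beside 0% of all, and 1 of the 8, Gria1, had an unadjusted p under 0.05, beside 10.6% of all tested genes. Gria1 was higher in WIN+cocaine in value, with a log2 difference of 0.29 (95% confidence interval 0.03 to 0.55) and an adjusted limma p of 0.468; the groups overlapped, and none of the 8 genes was separated, beside 18% of all. Its unadjusted p was above 0.05 after median ratio rescaling, with only the libraries compared, and with cocaine replicate 1, cocaine replicate 3, WIN+cocaine replicate 2 or WIN+cocaine replicate 3 left out. Dlg4 and Camk2a were lower in value at -0.21 and -0.21, Grin1 was at -0.12, Homer1 at 0.18 and Grm5 at 0.20, while Grin2a at 0.07 and Grin2b at 0.01 differed least. Single libraries moved these values: Grm5 was at 0.03 with WIN+cocaine replicate 3 left out, 0.08 with cocaine replicate 1 left out, 0.33 with cocaine replicate 2 left out and 0.31 with WIN+cocaine replicate 1 left out. Homer1 was at 0.06 with cocaine replicate 2 left out. With cocaine replicate 3 left out it was at 0.34, with an unadjusted p under 0.05, beside 13.9% of all tested genes. Camk2a was at -0.11 with cocaine replicate 2 left out, -0.12 with WIN+cocaine replicate 2 left out and -0.36 with WIN+cocaine replicate 3 left out. Dlg4 was at -0.13 with cocaine replicate 2 left out and -0.12 with WIN+cocaine replicate 2 left out, and Grin1 at -0.05 with WIN+cocaine replicate 2 left out.

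WIN+cocaine against WIN gives the cocaine difference among libraries that had WIN. In limma 0 of the 8 had an adjusted p under 0.05, beside 0% of all, and 0 an unadjusted p under 0.05, beside 3.76% of all; none was separated, beside 7.46% of all tested genes. Grin1 was at 0.19 (95% confidence interval -0.04 to 0.43), where cocaine against control gave 0.29. The unadjusted p of Grin1 was under 0.05 in 4 of 20 alternatives. These were the fit without WIN replicate 3, at 0.31 (14.8% of all tested genes), and that without WIN+cocaine replicate 2 (6.17%). The others were the replicate block (3.67%) and library weights (13.8%), where Grm5 also had an unadjusted p under 0.05. With WIN replicate 2 left out Grin1 was at 0.10, with an unadjusted limma p of 0.372. Homer1 was at -0.08 (-0.39 to 0.22), where cocaine against control gave -0.44. Gria1 stood at 0.09 (-0.17 to 0.35) and Grm5 at 0.26 (-0.10 to 0.61), both with the opposite sign to cocaine against control. With WIN+cocaine replicate 3 left out Gria1 was at 0.01 and Grm5 at 0.08. Grin2b at 0.06, Camk2a at 0.01, Grin2a at -0.05 and Dlg4 at -0.10 had intervals that held 0.

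Against control, WIN+cocaine had 0 of the 8 genes at an adjusted p under 0.05, beside 0% of all, and 0 at an unadjusted p under 0.05, beside 7.91% of all. Homer1 was at -0.26 (95% confidence interval -0.57 to 0.05) and an adjusted limma p of 0.627, although its 3 values lay below all controls; with control replicate 2 left out it was at -0.16. Grin1 was at 0.17 (-0.06 to 0.40) and Grin2a at -0.27 (-0.79 to 0.25). The other 5 lay near 0, with Dlg4 at -0.09, Camk2a at -0.05, Grin2b at -0.03, Grm5 at 0.0045 and Gria1 at 0.03. WIN+cocaine against control and cocaine against control share the 3 control libraries.

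The interaction, the cocaine difference with WIN minus that without WIN, had 0 of the 8 genes at an adjusted p under 0.05, beside 0% of all, and 0 at an unadjusted p under 0.05, beside 9.02% of all tested genes. Grm5 had the largest value, 0.45 (95% confidence interval -0.05 to 0.96), followed by Homer1 at 0.36 (-0.08 to 0.79) and Gria1 at 0.35 (-0.02 to 0.71), with adjusted limma p of 0.539, 0.549 and 0.539 in this order. Grin1 was at -0.10 (-0.43 to 0.23) and Dlg4 at -0.23 (-0.58 to 0.13), and Grin2a at 0.28, Grin2b at 0.10 and Camk2a at -0.14 also had intervals that held 0. A difference between the cocaine responses with and without WIN was thus not shown for any of the 8. In the direction opposite to cocaine against control, the intervals do not exclude differences of the size seen there. With cocaine replicate 2 left out, Gria1 and Grm5 had an unadjusted p under 0.05, at 0.44 and 0.58, beside 7.59% of all tested genes. With WIN+cocaine replicate 1 left out they did so at 0.44 and 0.56, beside 11.7% of all. Homer1 did so with cocaine replicate 3 left out, at 0.51, beside 12.3% of all. Other libraries lowered these values: Gria1 was at 0.24 with cocaine replicate 1 left out, Grm5 at 0.28 with WIN+cocaine replicate 3 left out and Homer1 at 0.24 with cocaine replicate 2 left out, with unadjusted limma p of 0.16, 0.187 and 0.241 in this order. With library weights Homer1 was at 0.18.

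Of the 8 genes, 5 were in a pair that varied together past the test. Over the 12 libraries, log2(FPKM + 1) was correlated for all 28 pairs, with permutation p-values from 100000 two-sided resamples adjusted over the 28 pairs. In 5 of the 28 pairs the adjusted p of Pearson's r was under 0.05, and none of these held Grin1, Gria1 or Homer1. The share of such pairs among all tested genes was not computed, so the count cannot be set against a background. Camk2a and Dlg4 gave r = 0.892 (adjusted permutation p = 0.00252) and Spearman's rho = 0.916 (adjusted permutation p = 0.00205). Of all tested genes, 0.241% followed Camk2a more closely than Dlg4 did. Without the 2 libraries farthest from the median of Camk2a r was 0.855, and within groups, as deviations from the group means, it was 0.916.

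Another 3 pairs joined the NMDA subunits Grin2a and Grin2b with Grm5. Grin2b and Grm5 gave r = 0.858 and rho = 0.888 (adjusted permutation p = 0.00448 and 0.00205), and 0.287% of all tested genes followed Grin2b more closely. Grin2a and Grm5 gave r = 0.788 and rho = 0.895 (adjusted permutation p = 0.0164 and 0.00205). Grin2a and Grin2b gave r = 0.784 and rho = 0.769 (adjusted permutation p = 0.0208 and 0.0345). Of all tested genes, 1.98% followed Grin2a more closely than Grm5 did, and 2.05% more closely than Grin2b did. Without the 2 farthest libraries these 3 values of r were 0.825, 0.817 and 0.824, and within groups 0.922, 0.881 and 0.83.

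Grin2b and Camk2a gave r = 0.721 and rho = 0.671 (adjusted permutation p = 0.0458 and 0.0925). This r was 0.502 without the 2 libraries farthest from the median of Grin2b, 0.79 within groups and 0.774 after median ratio rescaling. A higher r to Grin2b than that of Camk2a was found for 1.93% of all tested genes. Within groups, r between the pair Camk2a and Dlg4 and the trio ran from 0.466 (Grin2a and Dlg4) to 0.79 (Grin2b and Camk2a), so the 2 sets were not separate. Grin1, the obligatory partner of Grin2a and Grin2b in the receptor, gave r = -0.22 and rho = -0.308 with Grin2a, and r = 0.223 and rho = 0.168 with Grin2b (adjusted permutation p of r = 0.593 for both; of rho 0.442 and 0.678). Its closest companion was Camk2a, at r = 0.681 and rho = 0.643 (adjusted permutation p = 0.065 and 0.0985). Gria1 was closest to Grm5, at r = 0.673 and rho = 0.587 (adjusted permutation p = 0.065 and 0.128), with r = 0.313 without the 2 farthest libraries. A higher r to Gria1 than that of Grm5 was found for 8.89% of all tested genes. Homer1 was closest to Gria1, at r = 0.517 and rho = 0.49 (adjusted permutation p = 0.161 and 0.219), while 19.1% of all tested genes had a higher r to Gria1 than Homer1 did. Homer1 had a negative r with 4 of the other 7 genes, the lowest with Grin1 at r = -0.659 and rho = -0.552 (adjusted permutation p = 0.065 and 0.155). That r also holds the opposite differences of these genes between cocaine and control. Within groups it was -0.4, and the lowest for Homer1 was with Camk2a at -0.52. The libraries share their scaling by total reads; after median ratio rescaling, whose factors ran from 0.9786 to 1.028, the r of Camk2a and Dlg4 was 0.915 and that of Grin2b and Grm5 0.867.

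**Figure D4:**
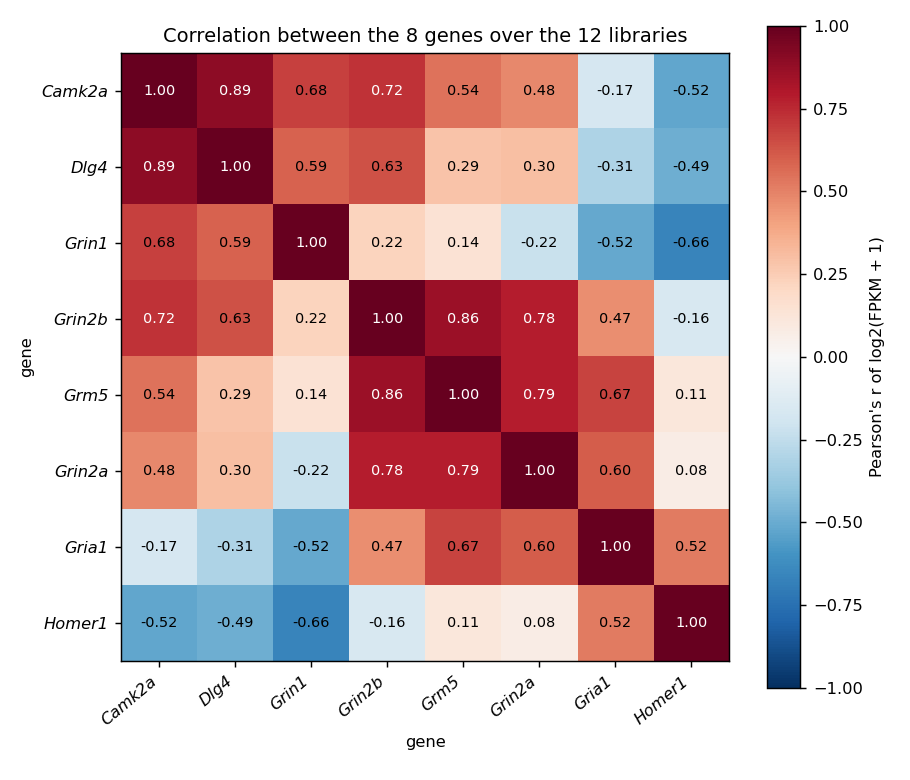
Pearson's r of log2(FPKM + 1) between each pair of the 8 genes over the 12 libraries (colour and number). Camk2a with Dlg4, at 0.89, and Grin2a, Grin2b and Grm5 with each other, from 0.78 to 0.86, form the darkest blocks, and Homer1 is negative with Grin1 at -0.66.

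**Figure D5:**
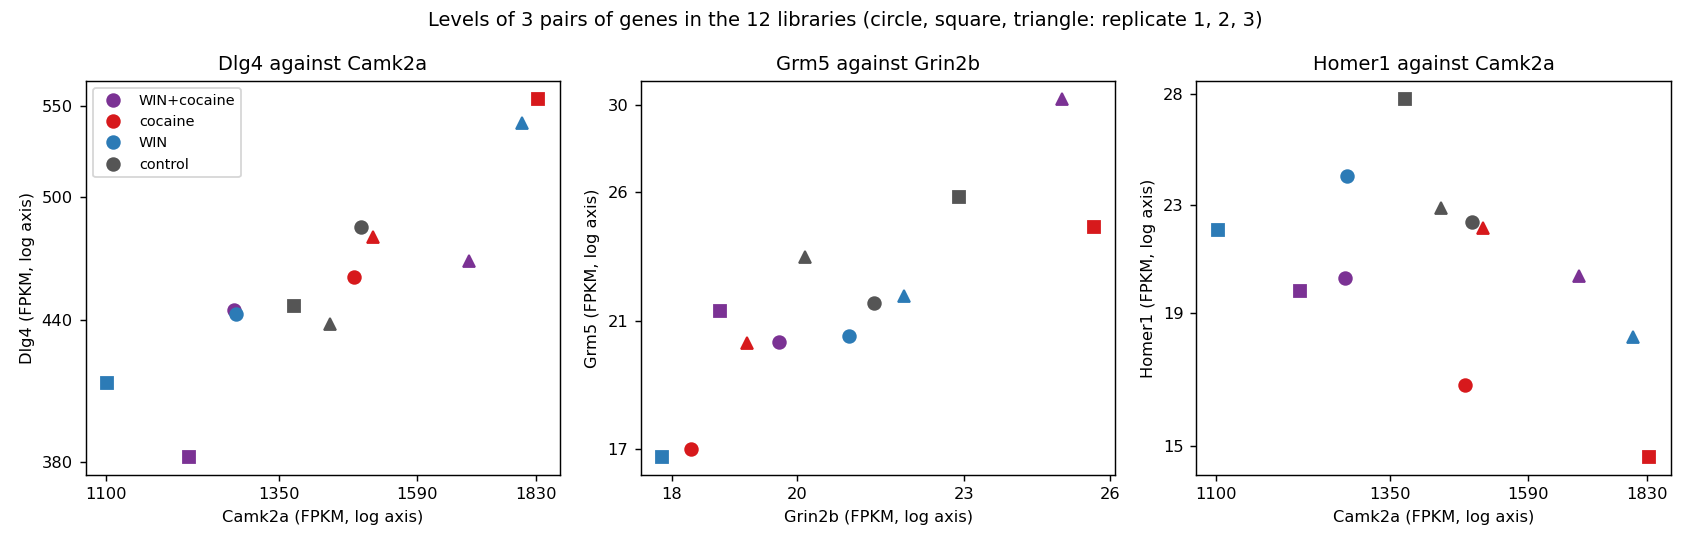
FPKM of Dlg4 against Camk2a, Grm5 against Grin2b and Homer1 against Camk2a in the 12 libraries (logarithmic axes), coloured by group. Over the 12 libraries Dlg4 is mostly high where Camk2a is high, and Grm5 where Grin2b is high. The order of libraries differs in control for both pairs, and in WIN+cocaine for Grin2b and Grm5. Cocaine replicate 2 has the highest Camk2a, at 1834 FPKM, with the lowest Homer1, at 14.7 FPKM.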

How the data were processed

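The 12 prefrontal cortex RNA libraries come from 1 µg of total RNA each and a stranded kit, per the labels' protocols. The authors deposited 1 table of FPKM values, 1 column per library. The tools named per the submitters' processing notes include HISAT2, HTSeq and DESeq; their versions, the RNA genome build, annotation and strand setting were not stated there, so overlapping antisense genes may share reads. Columns were matched to libraries by the names in the sample descriptions, and groups and replicate numbers come from the titles. The 6 nucleus accumbens libraries and the 4 ATAC libraries were not analysed here; no annotation of the ATAC build was at hand.

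The 8 genes were named by the rule that chose them, and the table pairs no other ID with a symbol. The lists of other postsynaptic genes and of cell type markers set by symbol were therefore not used here, and markers of the tissue could not be checked. The members and lists were chosen with earlier results of these data known. The rule for named genes took the 8 members, the member closest to each by Pearson's r, and the 2 Ensembl IDs with the highest and the 2 with the lowest r to the members' mean z-score.

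Limma 3.58.1 in R 4.3.3 was fitted to log2(FPKM + 1) with 4 group means over 12 libraries, a prior variance with a trend on mean level, and Benjamini-Hochberg adjustment; the 15326 genes tested reached 1 FPKM in 3 libraries or more. Fold changes on this scale understate changes of low genes. The fit was tested on simulated data. After a factor per library, a gene's values were multiples of a single step, and dividing by it returned whole reads (within 0.002 of a read) for 100% of the 24197 genes with a value. Implied lengths were whole base pairs, within 0.03 bp and after 1 common factor, for 99.957% of 11615 genes with more than 200 reads, where 6% would be so by chance. No 2 libraries agreed within sampling noise: chi-square per degree of freedom was 7.59 to 58.3. Alternatives were another pseudocount (0.1), no filter, median ratio rescaling, quantile normalization, only the libraries compared, library weights, limma voom on the recovered reads, a replicate block and leaving out each library.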

Additional observations from a re-analysis of the deposited data

How the results depend on the processing

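Of 952 recomputed differences (8 genes, 6 comparisons), 902 kept sign and side of the adjusted p of 0.05, 48 changed sign and 2 passed it, both without WIN replicate 3, whose library weight of 0.296 was the lowest. The count of the 8 genes at an adjusted p under 0.05 in cocaine against control thus ran from 0 to 2 over the left-out libraries and was 0 in the other alternatives, limma voom included; the fit with library weights called 13.6% and that with only the libraries compared 8.99% of all tested genes there, and the others, apart from the fit without WIN replicate 3, at most 3 genes. In the other 5 comparisons it was 0 in all. All sign changes were of values with an unadjusted p above 0.05; the cause was not tested. Under quantile normalization Camk2a was at -0.011 in cocaine against control and -0.012 in WIN+cocaine against WIN, Dlg4 at -0.022 in WIN against control, Grin2b at -0.0027 in WIN+cocaine against cocaine and Grm5 at -0.016 in WIN+cocaine against control. Under median ratio rescaling Grin2b was at -0.014 in WIN+cocaine against cocaine. With library weights Dlg4 was at -0.061 in WIN against control, Grin2a at 0.074 in WIN+cocaine against WIN and Camk2a at 0.036 in the interaction.

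Over the left-out libraries, the log2 differences that changed sign ran as follows. In cocaine against control Grin2b ran from -0.19 to 0.048. In WIN against control Grin1 ran from -0.13 to 0.071, Gria1 from -0.13 to 0.012, Camk2a from -0.27 to 0.086 and Dlg4 from -0.094 to 0.10. In WIN+cocaine against cocaine Grin2a ran from -0.15 to 0.30 and Grin2b from -0.11 to 0.16. In WIN+cocaine against WIN Grin2a ran from -0.27 to 0.15, Grin2b from -0.065 to 0.13, Camk2a from -0.14 to 0.21, Dlg4 from -0.19 to 0.0081 and Homer1 from -0.19 to 0.0048. In WIN+cocaine against control Grin2b ran from -0.15 to 0.048, Gria1 from -0.045 to 0.12, Grm5 from -0.17 to 0.11 and Camk2a from -0.20 to 0.039. In the interaction Grin1 ran from -0.19 to 0.015, Grin2b from -0.024 to 0.24 and Camk2a from -0.30 to 0.055. The difference in the Grin2a to Grin2b ratio, cocaine minus control, was -0.134 and ran from -0.2 to -0.0921.

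With the replicate block 0 of the 8 genes had an adjusted p under 0.05 in any comparison, beside 3 of all tested genes in cocaine against control. Libraries of different groups with the same number had deviations that correlated between -0.281 and 0.196 (median 0.0138). For different numbers the median was -0.0165. This check cannot exclude a shared batch, because deviations from a mean of 3 libraries are bound to cancel. The least covered of the 8 genes, Grin2a, had 961 reads or more per library, and how far depth limits these genes was not tested. The limma intervals rest on a spread pooled over all 12 libraries and on the prior variance. For Homer1 the standard error was thus 0.1408 both in cocaine against control and in WIN+cocaine against control. The alternatives of the correlations were chosen after the data were examined.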

Other observations

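Beside the 8 genes, the Ensembl IDs whose log2(FPKM + 1) followed the mean of their z-scores most closely over the 12 libraries were ENSRNOG00000012573, with r = 0.967 and a range of 13.8 to 19.9 FPKM, and ENSRNOG00000017660, with r = 0.946 and 41.8 to 54.8 FPKM. Those that ran most opposite were ENSRNOG00000032902, with r = -0.924 and 16.1 to 23.7 FPKM, and ENSRNOG00000008630, with r = -0.913 and 104 to 120 FPKM. They were picked for these values out of all tested genes, and the sources used here pair none of the 4 with a name. The members' mean z-score was highest in WIN+cocaine replicate 3, at 0.977, and lowest in WIN replicate 2, at -0.958, so it separated libraries within groups.

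The ratio of the 2 scaffold genes had a mean of 0.0363 ± 0.00973 for cocaine and 0.0535 ± 0.00812 for control (SD, n = 3 each). By library, Homer1 over Dlg4 was 0.0455, 0.0517 and 0.0434 in WIN+cocaine, 0.0363, 0.0266 and 0.046 in cocaine, 0.0547, 0.0533 and 0.0337 in WIN, and 0.0461, 0.0622 and 0.0522 in control. All 3 cocaine ratios were below all 3 control ratios, the closest pair being 0.046 and 0.0461, and WIN replicate 3 lay with the cocaine libraries. Homer1 alone already lay below all controls in cocaine, as did 21.5% of the tested genes, and no such share was computed for ratios. This ratio was chosen after the values were seen and was not tested.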
